A study of Homo sapiens with 2 samples.

Results

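The 10 genes described here encode inhibitors of the cyclin-dependent kinases (CDKs) and the retinoblastoma (RB) family of pocket proteins. They comprise the CIP/KIP inhibitors CDKN1A, CDKN1B and CDKN1C, the INK4 inhibitors CDKN2A, CDKN2B, CDKN2C and CDKN2D, and the pocket proteins RB1, RBL1 and RBL2. Members were taken by symbol, and all 10 were listed in both deposited gene tables, which held 23365 gene rows after repeats were dropped. The study sequenced poly(A) RNA of A673, an established human Ewing sarcoma cell line, carrying either a short hairpin RNA (shRNA) against RUNX3, named sh813, or a non-target shRNA, shNT. Both hairpins were delivered by lentivirus produced in HEK 293T cells, with 6 µg/mL polybrene, and both populations were kept in 0.4 µg/mL puromycin for 6 days. Each group was 1 library named a pool in its title, from 1 cell line and with 1 RUNX3 hairpin, so the differences below have no replicates behind them and are given without a test. Each library is called here by its title, the 813 pool or the NT pool, because its shRNA characteristic names the opposite hairpin. Reading the characteristic in place of the title would turn every direction round.

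CDKs drive a cell through division when bound to cyclins. INK4 proteins bind CDK4 and CDK6 and keep D-type cyclins from activating them, while CIP/KIP proteins bind complexes of cyclins with CDKs and inhibit chiefly those of CDK2. Pocket proteins bind E2F transcription factors and hold back the genes of DNA replication until CDKs phosphorylate them. RB1 pairs mainly with the activating E2Fs, whereas RBL1 and RBL2 pair mainly with the repressive E2F4 and E2F5 and form the DREAM complex with the MuvB proteins. Loss of CDKN2A recurs in a subset of Ewing sarcomas.

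Gene counts came to 23342660 read pairs in the 813 pool and 24326135 in the NT pool. RUNX3, the gene the hairpin targets, had 387 and 1391 pairs, which goes with the titles and against the characteristics. Of 10 Ewing sarcoma markers 9 were measured in these libraries, with summed levels of 6469 and 6048 CPM (read pairs, relative to the TMM-scaled library total). CD99 and CCND1 made up most of this sum, and the less abundant markers went both ways. PAX7 (856 and 4433 pairs), NKX2-2 (2495 and 6381), NR0B1 (3017 and 6172) and STEAP1 (382 and 646) had fewer pairs in the 813 pool. BCL11B (716 and 345), PRKCB (6904 and 5890) and LIPI (529 and 430) had more, and FATE1, with 1 and 5 pairs, was not measured. Of 6 HEK293 markers 3 were measured, and the list summed to 8.71 and 12.6 CPM with AGTR1 at 0 in both. No epithelial marker of 5 was measured. Of 6 leukocyte markers 3 were measured (3.23 and 3.96 CPM in all), with CD3E at 0 in both libraries and PTPRC at 0 and 1 pair. The fibroblast list summed to 3018 and 2395 CPM, nearly all from COL1A2 and PDGFRB. Of 5 endothelial markers 2 were measured, KDR (52 and 5 pairs) and PECAM1 (28 and 18), and the list summed to 3.56 and 1.68 CPM. VWF (5 and 8 pairs) and CDH5 (2 and 8) went the other way, and TEK was at 0 in both. Whether other cells had a part in the results was not tested, and in bulk RNA fewer cells of a type and less RNA per cell cannot be told apart.

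Of the 10 members, 8 were measured, meaning that they reached 1 CPM in at least 1 library. A gene was called higher or lower when the libraries differed 2-fold or more and the exact 95% interval of the ratio lay wholly beyond 1.5-fold. All intervals cover counting error only. By this rule 1 member, RBL1, was higher in the 813 pool, 1 member, CDKN1C, was lower, and 6 passed in neither direction. Over all 12254 measured genes, 8.13% were called higher, 3.48% lower and 11.6% in either direction. Of these calls 70.0% were higher in the 813 pool, a share that was 81.5% with plain total counts. The median log2 fold of the 8 measured members was 0.57, against 0.01 over all measured genes. The interval lay wholly above 0 for 5 members and wholly below 0 for 1, while over all measured genes 34.4% lay above and 34.7% below.

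**Figure D1:**
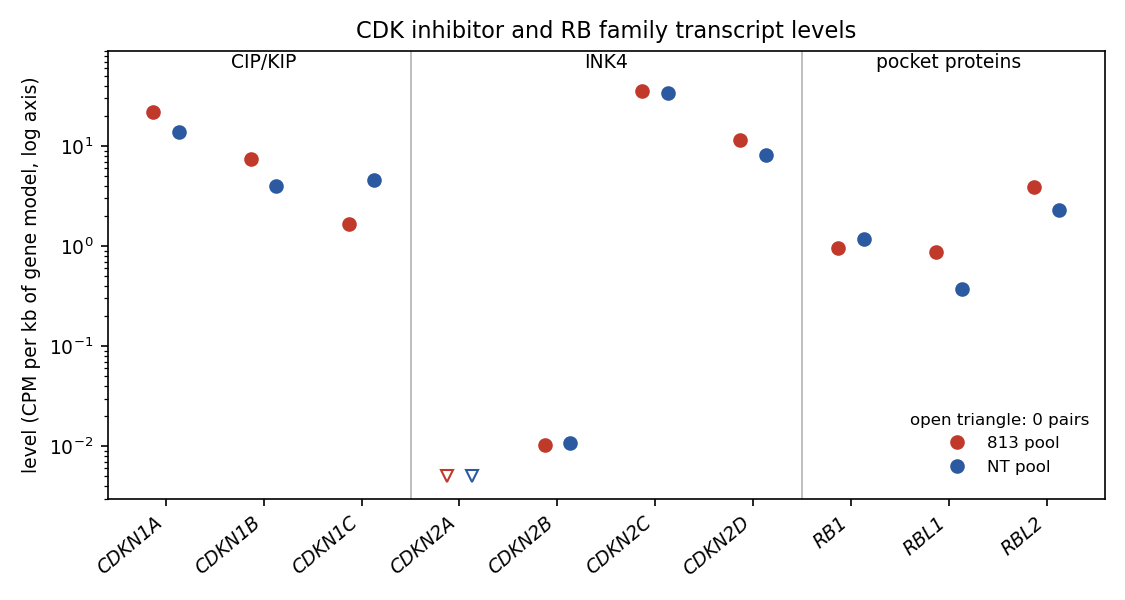
Level of each member in CPM per kb of gene model (log axis) in the 813 pool (red) and the NT pool (blue), 1 point per library, grouped by family. CDKN2C is at the top at 35.7 and 33.9 CPM per kb, CDKN2A had 0 pairs in both libraries, and CDKN1C and RB1 are the measured members with the lower point in the 813 pool.

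CDKN1A encodes p21, the inhibitor best known as a target of p53 in DNA damage arrest. The gene (chr6:36644237-36655116 in hg19) had 1297 pairs, or 53.02 CPM, in the 813 pool and 769 pairs, or 33.1 CPM, in the NT pool. The 813 pool was thus the higher of the pair, with a log2 fold of 0.68 (0.55 to 0.81), under the 2-fold limit. Its upstream exon records, chr6:36644237-36644301 and chr6:36645679-36645710, had 0 reads in both libraries, and its reads began at chr6:36646456-36646575 with 106 and 77 reads. The 3' exon (chr6:36653528-36655116) held most of the gene's exon reads, 1958 and 1125. A smooth trend of the log2 fold across measured genes on their GC content and length was also fitted and subtracted, and values after this step are called trend-corrected. The trend-corrected log2 fold of CDKN1A was 1.01 (0.88 to 1.14) and passed the rule.

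CDKN1B encodes p27, which accumulates in cells that leave the cycle and is destroyed through SKP2 as cells enter S phase. It lies at chr12:12870302-12875305 and had 435 pairs (17.8 CPM) in the 813 pool and 225 pairs (9.69 CPM) in the NT pool. The log2 fold was 0.87 (0.64 to 1.11), and the 3 exons were alike, with log2 folds from 0.81 to 0.88. Scaling by plain total counts raised the log2 fold to 1.01, as did the authors' RPKM values (1.003), and CDKN1B then passed the rule.

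CDKN1C encodes p57, an imprinted inhibitor expressed mainly from the maternal chromosome and prominent in development. It was the member that was lower in the 813 pool, with 79 pairs (3.23 CPM) against 208 pairs (8.96 CPM) at chr11:2904448-2906995. The level was 2.76-fold lower, a log2 fold of -1.47 (-1.86 to -1.09), and 1.57% of measured genes had a lower fold. All 3 distinct exons were lower, from -1.69 at chr11:2905229-2905364, with 15 and 48 reads, to -1.33 at the 3' exon, with 74 and 178 reads. Trend-corrected, the log2 fold was -0.98 (-1.38 to -0.61), and the call ended.

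None of the 6 measured neighbours of CDKN1C at 11p15 was called lower. Over all measured genes 3.48% were, and 6 genes are too few to be set against that share. PHLDA2, a maternally expressed growth restrainer of the same imprinted cluster, was called higher with 677 and 269 pairs, a log2 fold of 1.25 (1.05 to 1.47). SLC22A18, which lies between the pair, had 436 and 546 pairs and a log2 fold of -0.40, and passed in neither direction. KCNQ1OT1, the noncoding RNA that silences the cluster on the paternal chromosome, had 19 and 22 pairs and stayed under 1 CPM in both libraries. Of 6 measured genes in the list of neighbours, 1 was higher and 0 were lower, with a median of 0.10.

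Levels within the CIP/KIP family were compared per kb of gene model. CDKN1A stood first in both pools with 22.1 and 13.8 CPM per kb. CDKN1B and CDKN1C stood at 7.37 and 1.67 CPM per kb in the 813 pool and at 4.02 and 4.64 in the NT pool, where the intervals of their shares overlapped and their order was within counting error. CDKN1C made up 5.37% (4.28 to 6.64) of the family level per kb in the 813 pool and 20.7% (18.2 to 23.2) in the NT pool. The share of CDKN1B was 23.6% (21.7 to 25.7) and 17.9% (15.8 to 20.1). The intervals around these shares come from the exact Clopper-Pearson interval of the gene's share of pairs, with the mix of the other members taken as fixed. The summed pairs of the family were 1811 and 1202, a log2 fold of 0.52 (0.41 to 0.62).

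**Figure D2:**
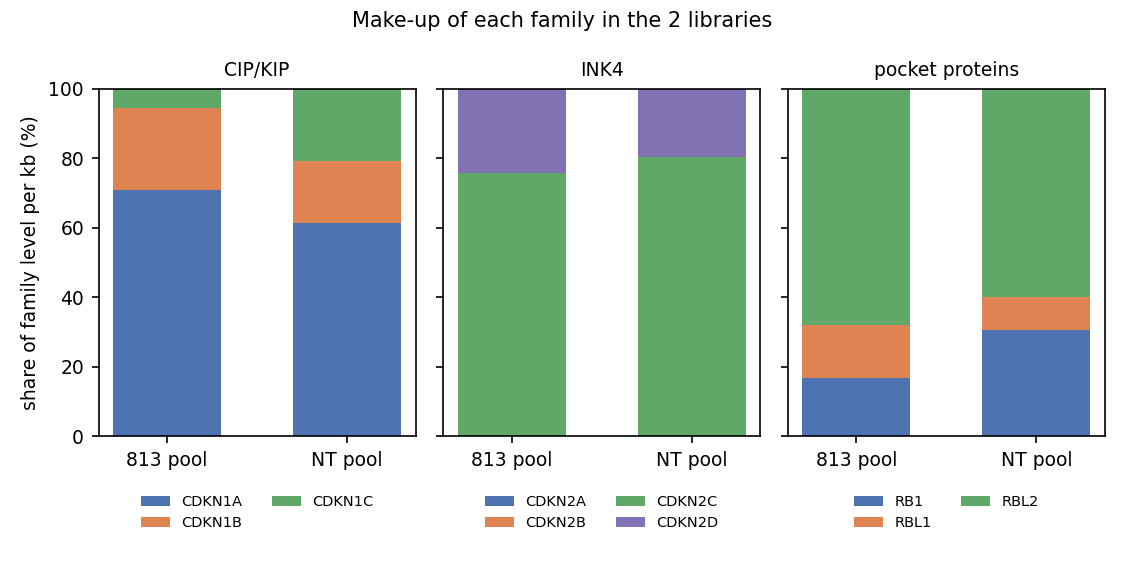
Share of each member in the summed CPM per kb of its family (percent, stacked bars starting at 0) in the 2 libraries, 1 library per bar. CDKN1C takes 5.37% of the CIP/KIP bar of the 813 pool and 20.7% of the other, RB1 takes 16.8% and 30.5% of the pocket protein bars, and CDKN2A and CDKN2B are too small to see.

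The INK4 family was carried by CDKN2C and CDKN2D. CDKN2C encodes p18, which binds CDK4 and CDK6, and was the most abundant member per kb. It lies at chr1:51434367-51440309 and had 2164 pairs (88.5 CPM) in the 813 pool and 1948 pairs (83.9 CPM) in the NT pool. The libraries lay close together, with a log2 fold of 0.08 (-0.01 to 0.17) whose counting interval excludes a 2-fold difference either way. All 3 distinct exons had reads, with log2 folds from 0.06 to 0.13. The 5'-most exon record (chr1:51434367-51435571) had 2279 and 2075 reads, so transcripts with this first exon were present in both.

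CDKN2D encodes p19, the INK4 inhibitor whose transcript is periodic in the cell cycle. At chr19:10677138-10679655 it had 397 pairs (16.2 CPM) in the 813 pool and 272 pairs (11.7 CPM) in the NT pool. The former was the higher, with a log2 fold of 0.47 (0.24 to 0.70), within the 2-fold limit. The trend-corrected value, 0.95 (0.72 to 1.18), was still short of the limit. CDKN2C made up 75.8% (73.7 to 77.7) and 80.4% (78.3 to 82.4) of the INK4 level per kb, and CDKN2D 24.2% and 19.6%.

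CDKN2A, whose separate first exons give p16 and ARF, was listed at 0 pairs in both libraries. A count of 0 allows up to 3 pairs, or 0.123 CPM in the 813 pool and 0.129 CPM in the NT pool. None of its 6 exon records had a read, including the 5'-most exon (chr9:21994138-21994490) and the overlapping records of the next (chr9:21974403-21974826 and chr9:21974677-21975132). CDKN2B, which encodes p15, a target of TGF-beta signalling, had 1 pair in each library, both in its 3' exon (chr9:22002902-22006246). Both genes were at or under the floor of 3 pairs, and no fold is given. Transcripts of the 2 genes align over 361 bases at 86.7% identity, and whether a read there could be assigned to either gene was not tested. CDKN2B also lies within the span of the antisense RNA CDKN2B-AS1, and without a stated strand setting the reads of these genes cannot be told apart.

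Reads at 9p21 were plentiful in MTAP and sparse or absent in the next genes, from C9orf53 to DMRTA1. MTAP, a methionine salvage enzyme at chr9:21802635-21865969, had 291 and 201 pairs with reads in all 8 of its exon records in both libraries. Its log2 fold was 0.46 (0.19 to 0.72), and it passed in neither direction. Beyond it C9orf53 had 0 pairs, and the antisense RNA CDKN2B-AS1 (chr9:21994790-22121093) had 1 pair in each library. DMRTA1, on the far side, had 5 and 2 pairs and was not measured. IFNE (chr9:21480839-21482312), on the other side of MTAP, also had 0 pairs in both libraries. DNA copy number was not measured in these data. Of the 13 listed genes of the region 6 were measured, all 6 with log2 folds above 0 and a median of 0.48. Some of these folds had intervals that spanned 0. Over all measured genes 50.7% had a log2 fold above 0, and 6 genes are too few to be set against that share. One of the 6, PLAA, a regulator of ubiquitin-dependent protein sorting, was called higher at 1.15 (0.85 to 1.46). That call ended at a trend-corrected 0.81.

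**Figure D3:**
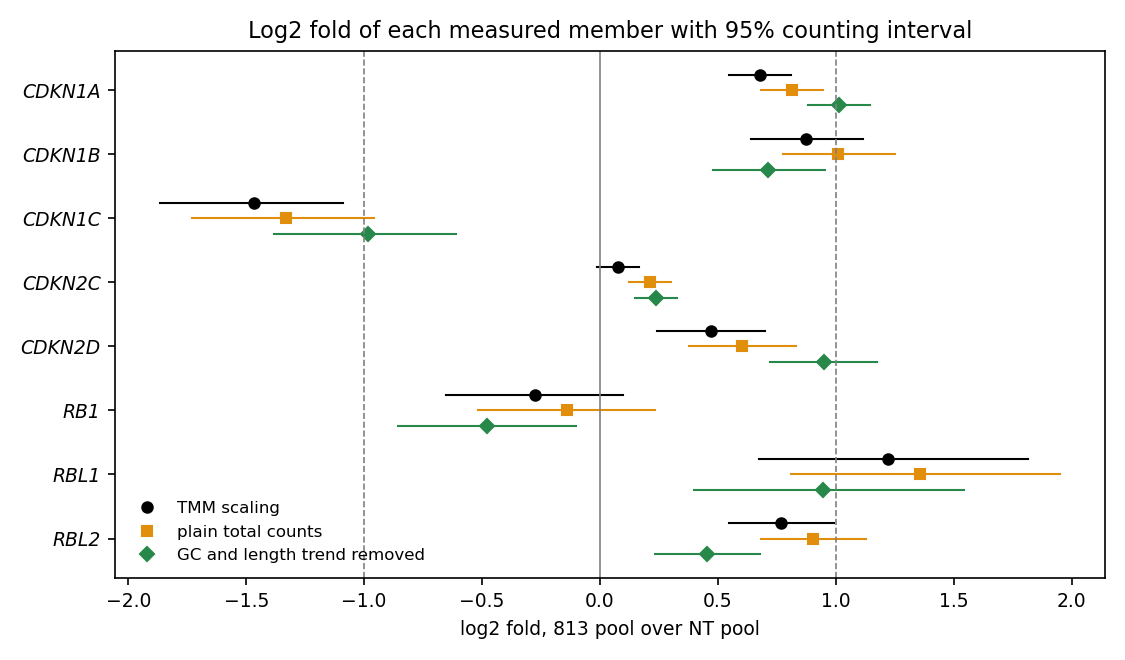
Log2 fold, 813 pool over NT pool, of the 8 measured members with the exact 95% counting interval as a line, under TMM scaling (black), plain total counts (orange) and trend-corrected (green). Dashed lines mark 2-fold. CDKN1C is to the left under all 3 settings but its green point is inside the 2-fold line, as that of RBL1 is on the right.

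RB1, which encodes the retinoblastoma protein, was less abundant per kb than RBL2 in both libraries and more abundant than RBL1 in the NT pool. At chr13:48877883-49056026 it had 113 pairs (4.62 CPM) in the 813 pool and 130 pairs (5.60 CPM) in the NT pool. The log2 fold was -0.28 (-0.65 to 0.10), so the libraries did not differ beyond counting error. All 27 exons had reads. Its trend-corrected log2 fold was -0.48 (-0.86 to -0.10).

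RBL1, which encodes p107, was the member called higher. It had 94 pairs (3.84 CPM) in the 813 pool and 38 pairs (1.64 CPM) in the NT pool at chr20:35626178-35724410. This was 2.33-fold higher, a log2 fold of 1.22 (0.67 to 1.81), with 93.9% of measured genes at a lower fold. Of its 22 distinct exons 20 were higher in the 813 pool. Summed over exons, RBL1 had 223 and 75 reads and a log2 fold of 1.48 (0.95 to 2.07). In the 813 pool this sum exceeds the gene count of 188 reads. Whether reads were counted in more than 1 exon was not tested, and intervals from summed exon reads would then be too narrow. The call ended at a trend-corrected log2 fold of 0.95 (0.40 to 1.54). RBL1 also stayed under 5 CPM in both libraries, so a filter at that level leaves it out.

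RBL2, which encodes p130, the pocket protein typical of resting cells, was the most abundant of the 3 per kb. It lies at chr16:53468351-53525560 and had 469 pairs (19.2 CPM) in the 813 pool and 261 pairs (11.2 CPM) in the NT pool. The log2 fold was 0.77 (0.55 to 0.99), wholly above no difference and under the 2-fold limit. Of its 22 exons 21 were higher in the 813 pool, and the 3' exon (chr16:53524042-53525560) had 268 and 121 reads. The trend-corrected log2 fold was 0.45 (0.23 to 0.68).

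RBL1 is itself a known E2F target, and windows around RefSeq starts of RBL1 and RBL2 are shown because both genes had more pairs in the 813 pool and the windows hold a motif match. Each window runs from 250 bases before the start to 50 after it, in RefSeq's GRCh38.p14, and is read 5' to 3' on the strand of the gene. The RBL1 window is chr20:37095948-37096247, minus strand, and capitals mark matches to the E2F motif. The RBL2 window, the upstream one of 2, is chr16:53434221-53434520, plus strand, where capitals mark a match to TTTGAA, the cell cycle homology region (CHR) bound by MuvB. The other RBL2 window, chr16:53435369-53435668, had 0 matches to any motif searched and is not shown.
RBL1: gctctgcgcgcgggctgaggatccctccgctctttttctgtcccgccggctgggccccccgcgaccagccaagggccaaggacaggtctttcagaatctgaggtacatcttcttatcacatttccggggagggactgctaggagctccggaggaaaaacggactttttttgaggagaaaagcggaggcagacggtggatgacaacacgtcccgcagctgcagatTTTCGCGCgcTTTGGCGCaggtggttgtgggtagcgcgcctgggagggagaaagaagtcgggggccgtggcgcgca
RBL2: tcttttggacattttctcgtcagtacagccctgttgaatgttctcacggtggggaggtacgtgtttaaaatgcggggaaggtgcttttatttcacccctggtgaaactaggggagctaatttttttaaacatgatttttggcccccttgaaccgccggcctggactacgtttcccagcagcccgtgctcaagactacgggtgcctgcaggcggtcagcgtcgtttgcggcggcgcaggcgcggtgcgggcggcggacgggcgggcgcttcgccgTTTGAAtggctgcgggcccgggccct

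The E2F motif was searched on both strands as TTTCCCGC, TTTGGCGC, TTTCGCGC and TTTGCCGC. RBL1 held 2 matches, TTTCGCGC from position -26 and TTTGGCGC from position -16, which do not overlap. Of all 35116 RefSeq promoter windows of this length, 3.31% held at least 1. RefSeq gave 13 windows for 9 members, and of these 13 the RBL1 window was the only one with an E2F match. The single RB1 window (chr13:48476200-48476499) lies inside the gene near its 3' end, so the start of full-length RB1 was not searched. The RUNX core motif, searched as TGTGGT and TGCGGT on both strands, was in 0 of the 13 windows and in 19.6% of all windows. TTTGAA was in 1 of the 13 and in 15.2% of all windows. CDKN1C had no entry.

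Per kb, the pocket proteins ranked RBL2, RB1 and RBL1 in both libraries. The levels were 3.92, 0.968 and 0.874 CPM per kb in the 813 pool and 2.30, 1.17 and 0.372 in the NT pool. RB1 and RBL1 were near each other in the 813 pool (a ratio of 1.11) and apart in the NT pool (3.15). RB1 made up 16.8% (14.0 to 19.8) of the family level in the 813 pool and 30.5% (26.2 to 35.1) in the NT pool. RBL2 made up 68.1% (64.4 to 71.6) and 59.8% (55.0 to 64.5). The summed pairs of the family were 676 and 429, a log2 fold of 0.58 (0.40 to 0.76).

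No tested exon record of a member departed from the rest of its gene by the rule used here, and CDKN2A and CDKN2B had no record to test. The rule took 38 exon records of members, with at least 50 reads in a gene of at least 200, some of which overlap. Of these, 0 departed by 2-fold or more, with separate intervals, from the summed other records of their gene. Over all genes 0.423% of 92860 exon records did, and 38 records are too few to be set against that share. The other records include any that overlap the tested one, so the same reads can stand on both sides, which works against a departure. At 1.5-fold the members' count was also 0. In RBL1 the 3' exon (chr20:35626178-35627332) was tested, with 36 and 25 reads and a log2 fold of 0.43 (-0.67 to 1.62). The other exon records of RBL1 together were at 1.85, a gap of more than 2-fold, but the intervals overlapped. The single exons of RB1 and RBL1 were mostly too sparse for this rule, and the pocket protein genes were therefore also split into 3 segments by exon number, a split chosen after the exon values were seen. In RB1 exons 1 to 9 had 74 reads in the 813 pool and 45 in the NT pool, a log2 fold of 0.63 (-0.15 to 1.47). Exons 10 to 18 had 56 and 78 reads (-0.55, -1.31 to 0.18) and exons 19 to 27 had 145 and 195 (-0.50, -0.96 to -0.05). The 5' segment of RB1 thus lay on the other side of no difference from the rest, with intervals that overlap. The 3 segments of RBL1 had log2 folds of 1.87, 1.77 and 1.07 from the 5' end, and those of RBL2 had 0.67, 0.70 and 0.80.

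**Figure D4:**
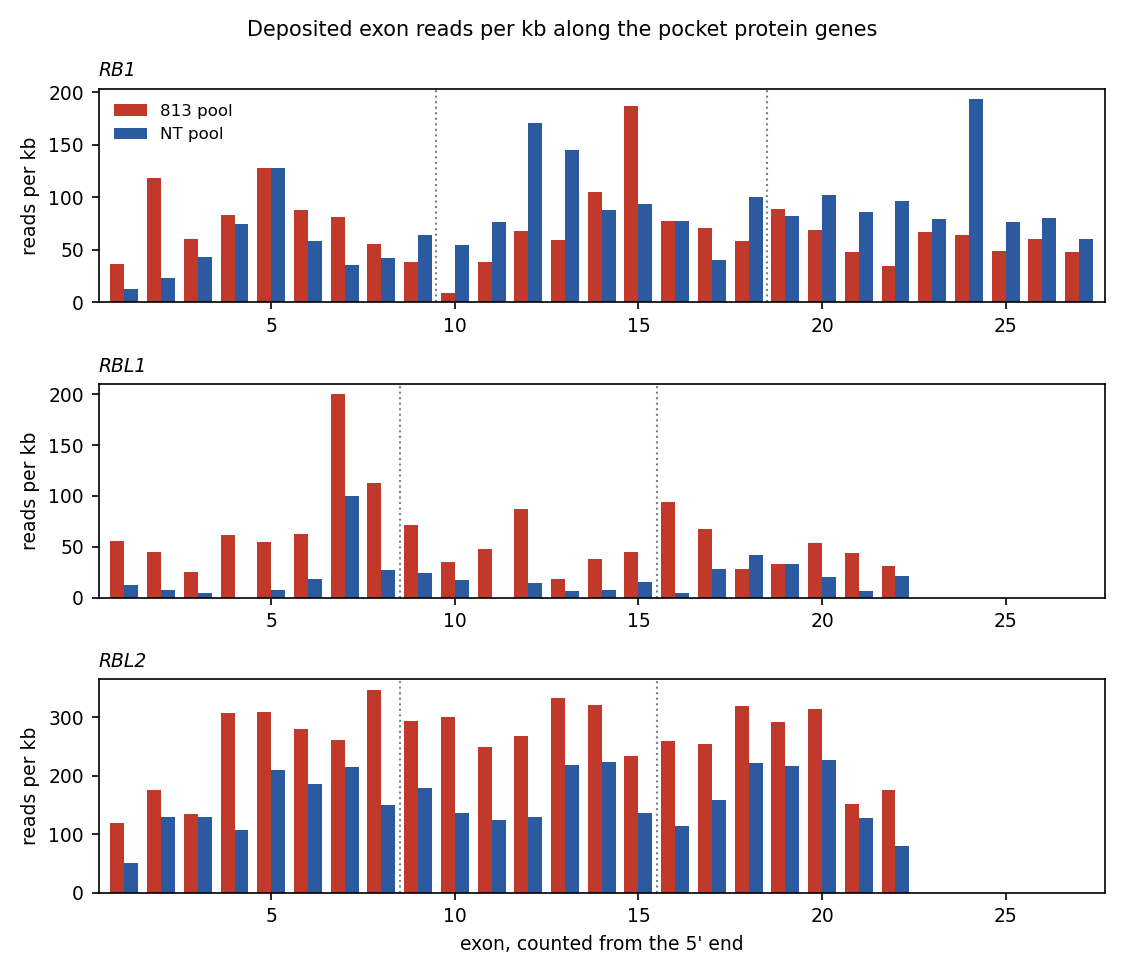
Deposited reads per kb of exon (bars starting at 0, not scaled to library size) along RB1, RBL1 and RBL2, by exon from the 5' end, in the 813 pool (red) and the NT pool (blue), with dotted lines between the 3 segments of each gene. Red bars stand above blue at 20 of 22 RBL1 exons once scaled to library size and at 21 of 22 RBL2 exons, while RB1 has 11 of 27 exons higher in the 813 pool, most of them in the 5' segment.

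The partners of these proteins were described by 12 lists, which held 156 distinct measured genes. Of these, 19 (12.2%) were higher in the 813 pool and 5 (3.21%) were lower, against 8.13% and 3.48% of all measured genes, and their median log2 fold was 0.03. The lower genes include RUNX3, the target of the hairpin. Trend-corrected, the counts were 9 and 2, with RUNX3 again among the lower genes. Over the whole table that correction left 740 higher and 263 lower of 11022 measured genes with a GC value, against 996 and 427 of 12254 before it.

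The D-type cyclins and their kinases, the targets of the INK4 proteins, held no called gene among 4 measured. CCND1 (cyclin D1) had 1835 and 1193 CPM and a log2 fold of 0.62 (0.60 to 0.64), and CDK4 had 490 and 604 CPM (-0.30). CCND3 was at 101 and 97.2 CPM (0.06), and CDK6 at 1.80 and 0.991 CPM (0.85). CCND2 had 3 and 4 pairs and was not measured. Among 17 measured genes of cyclins E, A and B, their kinases and switches, 0 were higher and 1 was lower. This was CDK1, the mitotic kinase, at 511 and 1127 pairs with a log2 fold of -1.22 (-1.37 to -1.06), a call that ended at a trend-corrected -0.97.

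E2F and DP factors, a list that holds the partners of the pocket proteins and other E2Fs, had 3 higher and 1 lower of 10 measured. The median of the list was 0.45. E2F3, an activator bound by RB1, had 618 and 242 pairs (1.28, 1.06 to 1.497). E2F7, an atypical repressor, had 358 and 149 pairs (1.19, 0.91 to 1.47). TFDP2, a dimer partner of the E2Fs, lay at the limit at 1.002 (0.83 to 1.17), and its call ended with 2 other scalings, at 0.986 and 0.969, and with a prior of 2 pairs. E2F4, the main partner of RBL1 and RBL2, was lower with 1409 and 2972 pairs, or 57.6 and 128 CPM (-1.15, -1.24 to -1.06). The other E2Fs passed in neither direction, with E2F1 at 0.12, E2F2 at -0.48 and E2F5 at 0.54. After trend correction the calls of E2F3 (0.92), E2F7 (0.80), TFDP2 (0.53) and E2F4 (-0.78) all ended, and the signs stayed.

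The DREAM and MuvB list held no called gene among 7 measured (median -0.26). FOXM1, a mitotic factor, was at -0.26 (-0.29 to -0.22), and MYBL2, which joins MuvB in dividing cells, was at -0.30 (-0.32 to -0.27) and turned to 0.09 after trend correction. The 20 measured E2F targets of DNA replication had a median of -0.13, and 0 of them were lower. The ubiquitin ligases that degrade the inhibitors had 0 called genes among 16 measured (median -0.18), with DDB1 at -0.29 and CDC20 at -0.60.

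Among 23 measured genes of p53 and its direct targets, the pathway best known for activating CDKN1A, 4 were higher and 1 was lower, with a median of -0.08. The higher genes were negative regulators of p53 and a stress protein. MDM4, a p53 inhibitor, had 586 and 187 pairs (1.57, 1.33 to 1.82), and MDM2, the p53 ubiquitin ligase, had 336 and 146 (1.12, 0.84 to 1.42). PPM1D, a phosphatase of the same feedback, was at 1.08 (0.69 to 1.49), and TP53INP1 at 1.60 (0.59 to 2.83) on 33 and 10 pairs. FDXR, ferredoxin reductase, was lower at -1.05 (-1.17 to -0.94). After trend correction MDM2 (0.72), PPM1D (0.78), TP53INP1 (1.34, 0.34 to 2.58) and FDXR (-0.56) lost their calls. The call of TP53INP1 also ended with 2 other scalings, and that of FDXR with plain total counts (-0.92) and the authors' RPKM (-0.92).

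The list of transcriptional regulators of the inhibitor genes had 3 higher and 1 lower of 21 measured (median 0.13). The higher genes were ID1 (1.49, 1.31 to 1.68), ID3 (1.26, 1.20 to 1.31) and KLF6 (1.48, 1.30 to 1.67), a zinc-finger factor described as an activator of CDKN1A, and the lower gene was RUNX3 itself (-1.92), the target of the hairpin. RB cofactors had 2 higher of 14 measured, the demethylase KDM5A (1.30) and the remodeller SMARCA2 (1.05), and 1 lower, E2F4, shared with the E2F list. Both higher calls ended after trend correction, at 0.80 and 0.68. Quiescence and senescence genes had 4 higher and 1 lower of 13 measured (median 0.31). Among the higher genes the chromatin protein HMGA2 was at 1.99 (1.81 to 2.17), IGFBP7 at 1.77 (1.09 to 2.57) and TP53BP1 at 1.28, a call that ended at a trend-corrected 0.94. TXNIP, a thioredoxin-binding protein, was lower with 109 and 413 pairs (-1.99, -2.32 to -1.69).

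**Figure D5:**
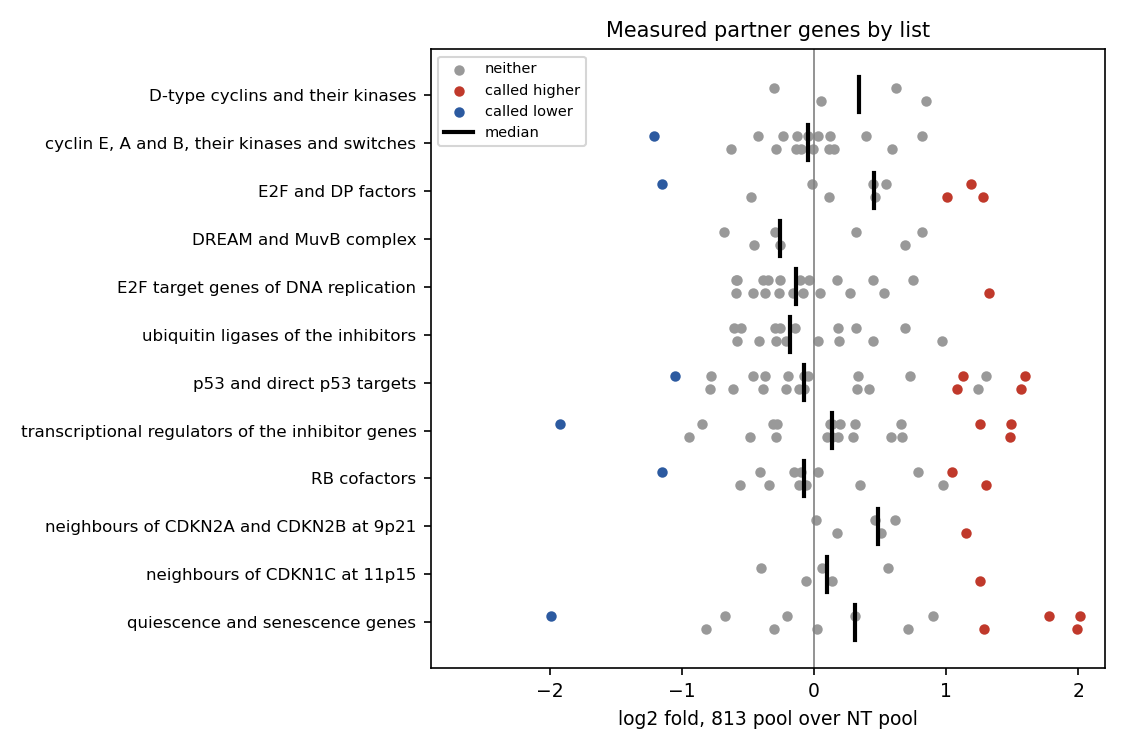
Log2 fold, 813 pool over NT pool, of the measured genes of the 12 lists of partners and neighbours, 1 point per gene (red called higher, blue called lower, grey neither) with the list median as a black line. Medians run from -0.26 for the DREAM and MuvB complex to 0.48 for the neighbours of CDKN2A and CDKN2B, and red and blue points both occur among the E2F and DP factors.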

How the data were processed

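The authors deposited a gene and an exon table per library. The submitters' processing notes list CASAVA 1.9, TopHat2 2.0.6, HTSeq and hg19. Which annotation was counted, and whether by strand, is not given in the sources used here, so reads of antisense or overlapping genes may be mixed. Raw counts, RPKM values and the gene length behind levels per kb are columns the authors named, per the file headers. All deposited gene counts are even, so each was halved to pairs; exon reads are printed as deposited and halved for folds. Of 23398 gene rows 33 repeats were dropped. Libraries were scaled with TMM (edgeR 4.0.16, R 4.3.3; factors of 1.05 in the 813 pool and 0.954 in the NT pool). The log2 fold uses a prior of 0.5 pairs and an exact 95% Clopper-Pearson interval of the ratio of pairs (scipy 1.17.1). No p-value was computed. PCR copies are not independent molecules. GC content came from GENCODE release 29 transcripts and covered 89.9% of measured genes. CDKN2A and CDKN2B transcripts were aligned with blastn 2.17.0. Members and lists were chosen with earlier results of these data known. All members, RUNX3, the D-type cyclins with CDK4 and CDK6, MTAP, KCNQ1OT1 and E2F1 to E2F5 are named; other list genes are named where called (up to 4 in each direction) or, in lists without a call, by the 2 highest levels. SLC22A18, DMRTA1, C9orf53, CDKN2B-AS1 and IFNE were added after their values were seen. Some called list genes are not reported here. Alternatives covered scaling, low-value filters, the prior, undivided counts, exon sums and the GC and length trend.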

Additional observations from a re-analysis of the deposited data

How the results depend on the processing

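No paired analysis was possible because each group has 1 library. The sign of the log2 fold of each of the 8 measured members was the same under every setting in which the gene was measured. With plain total counts and with the authors' RPKM ratio the members called higher were 2, with CDKN1B at 1.01 and 1.003. Over the whole table these settings called 1330 of 12271 and 1290 of 11868 measured genes higher. At 5 CPM or more 0 members were called higher, beside 718 of 9116 genes over the whole table. After trend correction (GC content and length explained 15.7% of the log2 fold's variance) 0 members were called lower, and the log2 folds of CDKN1A, CDKN1C and RBL1 were 1.01, -0.98 and 0.95, of which that of CDKN1A passed the rule. That setting leaves out genes without a GC value. It gave 740 genes higher and 263 lower of 11022 over the whole table, against 996 and 427 of 12254. Among the list genes it gave 9 and 2, against 19 and 5, and the log2 fold of MYBL2 turned to 0.091. Plain totals moved the median log2 fold of all measured genes from 0.01 to 0.15 and the share of calls that were higher from 70.0% to 81.5%. The cause of these shifts was not tested. Departing exons over all genes numbered 460 at 20 reads or more and 833 at 1.5-fold, against 393, with 0 in members each time. Summed exon lengths equal the gene lengths, so that alternative is no check of the family shares. Depth limits RB1, RBL1 and CDKN1C, the measured members with the fewest pairs.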
